A study of Mus musculus with 18 samples.

Results

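The 10 genes described here encode parts of the signalling route from the Toll-like receptors TLR3 and TLR4 to the transcription factors IRF3 and NF-κB. They are the receptors Tlr3 and Tlr4, the adaptor Ticam1, the ubiquitin ligases Traf3 and Traf6, the kinases Tbk1 and Ikbkb, and the transcription factors Irf3, Nfkb1 and Rela. Each was found by its Ensembl identifier among the 54547 gene rows of the count tables, and all 10 had a row. The question asked of them was which are still read in mouse brain tissue with reduced microglial RNA. It was also asked whether their levels differ from those in control tissue.

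The tissue was medial prefrontal cortex of C57BL6/J mice at postnatal day 100, in 18 libraries. The control group of 9 mice ate Control Diet. The other 9 mice ate a diet holding 1200 mg/kg PLX5622, a drug that blocks the CSF1 receptor, on whose signal microglia depend for survival. Per the labels, the mice of both groups were given ethanol at 15% every other day for 44 days after 21 days on the diet, and tissue was taken 24 hours after the last ethanol. No group without ethanol enters the comparison, so the values describe the 2 diets in drinking mice only. The treatment label does not differ between the diets and mentions PLX5622 for control mice as well, so the diet was taken from the library titles. Total RNA was used, and the library method favours the 3′ ends of transcripts. They held 990136 to 1742680 counts each, with a median of 1384979, and totals did not differ between diets beyond their spread (exact permutation test, two-sided p = 0.580). Scaled by the library total alone, 1 count was worth 0.574 to 1.01 CPM, and a count of 0 allows a level of up to 1.72 to 3.03 CPM (3 counts, counting error only). All levels given for genes and marker lists are CPM on library sizes that were also TMM-scaled, a correction for composition, so that 1 count differs slightly from these values there.

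TLR3 sits in endosomes and binds double-stranded RNA, and TLR4 sits at the cell surface and binds bacterial lipopolysaccharide together with its partner MD-2. TLR3 signals through TRIF, the product of Ticam1, and TLR4 signals through both TRIF and MYD88. From TRIF, one branch runs through TRAF3 and the kinase TBK1 to IRF3 and type I interferon genes. Another runs through TRAF6 and the IκB kinase, of which Ikbkb encodes a catalytic subunit, to NF-κB, a dimer of Rel proteins such as p65 (Rela) and p50 (Nfkb1). In brain, microglia are a known site of this signalling, and astrocytes, neurons and endothelium also express parts of it.

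The promoter table of RefSeq (GRCm38.p6), which gives 250 bases before to 50 bases after a start site, held 7 of the 10 genes. It was searched on both strands for a κB-like motif, a pattern chosen for this search: GGG, any 2 bases, TT, any base, CC. Matches of this pattern do not count all sites that NF-κB can bind. Tlr3 and Traf3 had a match, as had 5.48% of the 27025 genes in the table and 4.79% of its 32851 promoters. Another form of the motif (GG, any 2 bases, TTTCC), chosen after these matches were seen, was found in 3 of the 7 genes, Irf3 being the added one, and in 6.62% of all genes. The matches are printed with the motif in capitals, beside those of Nfkbia and Tnfaip3, NF-κB inhibitors that NF-κB is known to induce. They are descriptions of the letters and do not show that a factor was bound. The Tlr3 and Tnfaip3 matches lie before the RefSeq start site but inside the gene spans of GENCODE M21.
Tlr3, chr8:45410572-45410601, minus strand: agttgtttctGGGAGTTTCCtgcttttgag
Traf3, chr12:111166350-111166379, plus strand: ggcggcccgcGGGGATTTCCagcgcgcgag
Nfkbia, chr12:55492657-55492686, plus strand: gtcaggcgcgGGGAATTTCCaagccagtca
Tnfaip3, chr10:19015403-19015432, plus strand: ttgccaacagGGGGATTTCCgatggaaatt

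Microglial RNA was strongly reduced in the PLX5622 group. Of 20 microglial markers 16 could be tested, and all 16 fell, with a median log2 fold change of -1.77, or 29.3% of control. Csf1r, the target of the drug, fell from 64.1 ± 15.0 to 19.0 ± 4.03 CPM (mean ± SD, n = 9 per diet). P2ry12, a purinergic receptor of resting microglia, fell from 38.1 to 8.25 CPM, and Cx3cr1, the fractalkine receptor, from 49.9 to 11.8 CPM. The summed level of the 20 markers was 557 to 784 CPM in the control libraries and 154 to 273 CPM in the PLX5622 libraries, and the groups did not overlap (exact permutation test, p = 4.1e-05, the smallest that the assignments of 9 against 9 libraries can give). Trem2, a defining marker, was at 0 in every library of both diets, controls included, so it says nothing of the reduction. No other annotated gene overlaps it, and the cause of this 0 was not tested. Markers of border macrophages, which also need CSF1R, summed to 31.1 ± 5.61 and 9.60 ± 3.71 CPM. Those of astrocytes stood at 99.9% of control and those of neurons at 101%. Besides microglia and border macrophages, 2 of the 13 marker lists passed the exact permutation test. Choroid plexus markers rose from 10.9 ± 3.38 to 22.2 ± 10.6 CPM (204% of control, adjusted p = 0.019), and lymphocyte markers fell to 85.5% of control (adjusted p = 0.028), with overlapping groups in both. Few genes carry these 2 sums. Of the 10 lymphocyte markers 7 had under 10 counts in all, edgeR tested 2 and the exact test 1. Of the 6 choroid plexus markers edgeR tested 1 and the exact test 3. Neither test called any single marker of these 2 lists. Blood myeloid markers stood at 63.5% of control (adjusted p = 0.968), with control 3 at 206 CPM the highest library, and at 199% without it. Without control 3 the lymphocyte markers were at 86.7% and did not pass (adjusted p = 0.054). The part of these lists in the levels of the 10 genes was not tested. In such bulk samples, fewer cells of a type and less RNA per cell cannot be told apart.

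None of the 10 genes passed a test of the difference between the diets, and all 10 had counts in tissue with reduced microglial RNA. Tlr4 was read near the counting floor there. Whether the reads came from the remaining microglia or from other cells was not tested. The 10 genes together held 2981 counts in the control libraries and 3161 in the PLX5622 libraries. Their summed level was 244 ± 17.2 and 247 ± 11.0 CPM (SD, n = 9 each), or 101% of control. All but Tlr4 had a count in every library. Of the 8 genes with enough counts for the test, edgeR's quasi-likelihood test with Benjamini-Hochberg adjustment called 0 lower and 0 higher. Across all 11051 genes tested it called 39 lower, or 0.353%, and 5 higher, or 0.0452%, so a count of 0 among 8 genes is near the background. None of the 8 had an unadjusted p under 0.05, which 6.79% of all tested genes had. DESeq2 also called 0 of the 10, against 0.397% of the genes it tested. The 8 genes had a median log2 fold change of 0.05, with 5 above 0 and 3 below, against 9.93e-05 over all genes tested.

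**Figure D1:**
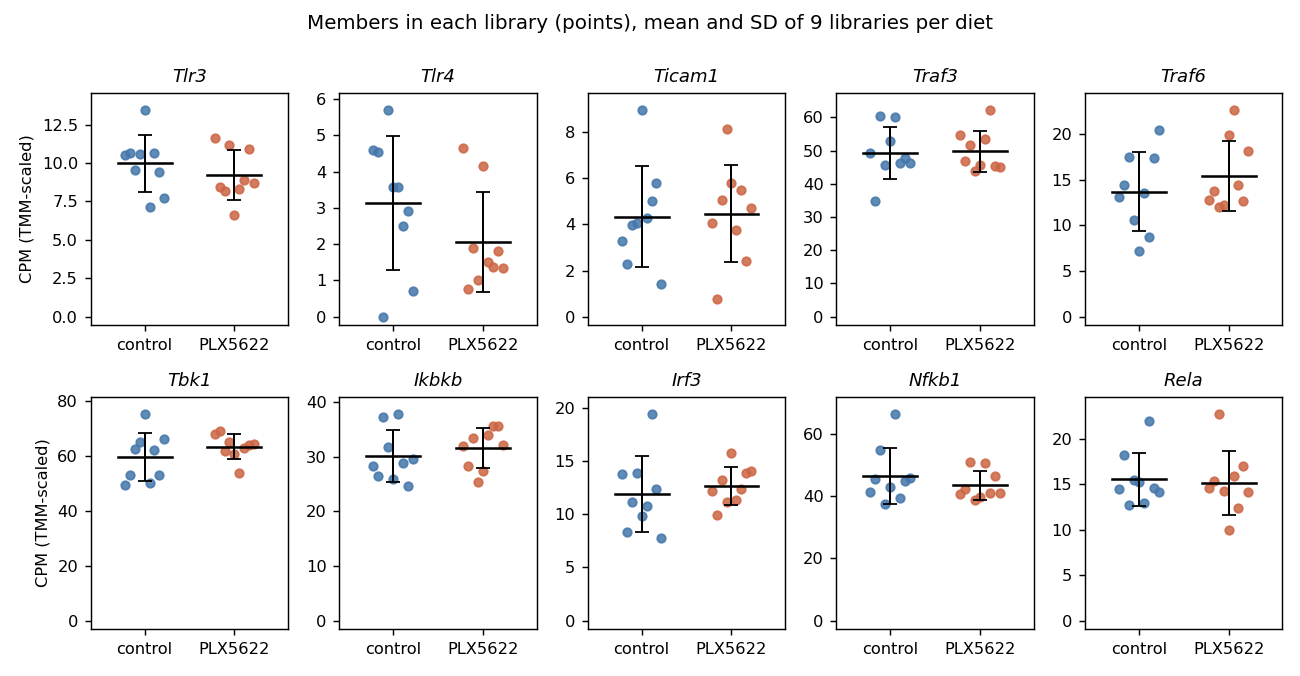
Level of each of the 10 genes (CPM, TMM-scaled, linear axis from 0) in each of 9 control and 9 PLX5622 libraries, shown as points with the mean and SD per diet. The groups overlap for every gene, and Tlr4 has the only library at 0.

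Both receptors had few counts. Tlr3 (ENSMUSG00000031639.12, GRCm38, chromosome 8, 45395665 to 45411080, minus strand) had 121 counts in the control and 118 in the PLX5622 libraries. Its level ran from 7.15 to 13.5 CPM with a median of 10.5 in control and from 6.65 to 11.6 CPM with a median of 8.73 in PLX5622. The groups overlapped over most of their range, and 3 of the 9 libraries from treated mice exceeded the control mean. The log2 fold change was -0.09 ± 0.18 (SE; 95% interval -0.46 to 0.27; edgeR adjusted p = 0.9755), which is 93.6% of control with an interval of 72.9 to 120%.

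Tlr4 (ENSMUSG00000039005.13, chromosome 4, 66827584 to 66930284, plus strand) had 38 counts in control and 27 in PLX5622, below the count filter of the main test. Its level ran from 0 to 5.70 CPM with a median of 3.58 in control, and from 0.767 to 4.65 CPM with a median of 1.51 in PLX5622. That PLX5622 median lies below the 1.72 to 3.03 CPM that a count of 0 allows. Control 4 was the only library without a count, and the highest PLX5622 libraries, 25 and 29, lay within the upper part of the control range. Of the PLX5622 libraries 7 lay below the control mean and 2 above it. The mean was 3.13 ± 1.85 CPM in control and 2.06 ± 1.38 CPM in PLX5622, a difference that did not pass the exact permutation test (two-sided p = 0.181, adjusted over 6315 low-count genes 0.891). This test called 0.396% of those genes lower and 0.0158% higher. With edgeR on all genes with at least 10 counts, Tlr4 stood at 69.2% of control with an interval of 41.3 to 116% (adjusted p = 0.902), where 0.547% of genes were called lower. Tlr4 was the gene of the 10 with the lowest point estimate, and its interval reaches from 41.3% of control to above control, so a loss of that size and no loss cannot be told apart at this depth.

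Ticam1, which encodes the adaptor TRIF (ENSMUSG00000047123.8, chromosome 17, 56269319 to 56276786, minus strand), had 52 and 55 counts and was also below the filter. Its level ran from 1.41 to 8.97 CPM with a median of 4.07 in control and from 0.767 to 8.14 CPM with a median of 4.70 in PLX5622. The ranges were nearly the same, and 5 of the 9 libraries from treated mice exceeded the control mean. The means were 4.34 ± 2.19 and 4.47 ± 2.10 CPM (exact permutation test, p = 0.905, adjusted 0.995). The sign of this difference turned when any of 6 single libraries was left out, with differences from -0.33 to 0.70 CPM.

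The TRAF proteins are ubiquitin ligases that pass the signal from the adaptors to the kinases. Traf3 (ENSMUSG00000021277.16, chromosome 12, 111166370 to 111267153, plus strand) ran from 34.9 to 60.3 CPM with a median of 47.9 in control and from 43.7 to 62.3 CPM with a median of 46.8 in PLX5622. The groups overlapped over most of their range, with control 3 the lowest and PLX5622 32 the highest library. Its log2 fold change was 0.03 ± 0.09 (95% interval -0.16 to 0.21; edgeR adjusted p = 0.989), and it turned below 0 without control 3 or without PLX5622 32. Traf6 (ENSMUSG00000027164.8, chromosome 2, 101678429 to 101701669, plus strand) ran from 7.18 to 20.4 CPM with a median of 13.6 in control and from 11.99 to 22.7 CPM with a median of 13.8 in PLX5622. Controls 5, 7 and 9 were lower than every PLX5622 library, while the rest of the groups overlapped. Its log2 fold change was 0.15 ± 0.17 (95% interval -0.18 to 0.49; edgeR adjusted p = 0.945).

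The kinases act on IRF3 and on the inhibitors of NF-κB. Tbk1, the kinase that phosphorylates IRF3 (ENSMUSG00000020115.3, chromosome 10, 121546455 to 121586787, minus strand), ran from 49.3 to 75.4 CPM with a median of 62.1 in control and from 53.6 to 69.0 CPM with a median of 64.1 in PLX5622. The PLX5622 libraries lay inside the control range, and 8 of 9 were above the control mean of 59.7 CPM. PLX5622 27, 29 and 31 lay below the control median. The log2 fold change was 0.10 ± 0.08 (95% interval -0.07 to 0.26; edgeR adjusted p = 0.903), so a rise of over 20% lies just outside the interval of 95.4 to 119.6% of control. Over left-out libraries the estimate ran from 0.06 to 0.14, the highest without control 7. Ikbkb (ENSMUSG00000031537.15, chromosome 8, 22659212 to 22706589, minus strand) ran from 24.7 to 37.9 CPM with a median of 28.8 in control and from 25.4 to 35.7 CPM with a median of 32.2 in PLX5622. All PLX5622 libraries again lay inside the control range. Its log2 fold change was 0.08 ± 0.11 (95% interval -0.13 to 0.30; edgeR adjusted p = 0.958).

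Among the transcription factors, Irf3 (ENSMUSG00000003184.15, chromosome 7, 44997648 to 45002848, plus strand) ran from 7.74 to 19.4 CPM with a median of 11.1 in control and from 9.97 to 15.8 CPM with a median of 12.3 in PLX5622. Control 9 was the highest library and control 11 the lowest. Its log2 fold change was 0.07 ± 0.17 (95% interval -0.26 to 0.41; edgeR adjusted p = 0.981). Nfkb1, which encodes p105 and its product p50 (ENSMUSG00000028163.17, chromosome 3, 135584655 to 135691547, minus strand), ran from 37.5 to 66.5 CPM with a median of 45.0 in control and from 38.6 to 51.1 CPM with a median of 41.1 in PLX5622. Control 8 stood above all other libraries. The log2 fold change was -0.09 ± 0.10 (95% interval -0.28 to 0.10; edgeR adjusted p = 0.942), and it was 0.0072 without control 8 and PLX5622 28. Rela, which encodes p65 (ENSMUSG00000024927.7, chromosome 19, 5637483 to 5648130, plus strand), ran from 12.7 to 21.9 CPM with a median of 14.5 in control and from 9.97 to 22.7 CPM with a median of 14.5 in PLX5622. The medians were equal to the digits given. Its log2 fold change was -0.03 ± 0.15 (95% interval -0.33 to 0.28; edgeR adjusted p = 0.998), and its sign turned without any of 4 single libraries.

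The width of the intervals sets what these comparisons could show. The 95% interval lay within a 1.5-fold change either way for the 8 genes tested, as it did for 93.2% of all genes tested, and reached past it for Tlr4 and Ticam1. The lower end of the interval lay above the median of the microglial markers for the 8 genes tested. It did so for 99.9% of all genes tested, so that this is a property of nearly every gene in these libraries. It also did so for Tlr4 and Ticam1, whose intervals come from the fit with at least 10 counts in all, outside that share. The 16 tested markers ran from -3.43 to -0.887 in log2 fold change, and the interval of Tlr4 reaches into that range. All 10 genes had overlapping groups. Over all genes tested, groups did not overlap for 22, or 0.199%.

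**Figure D2:**
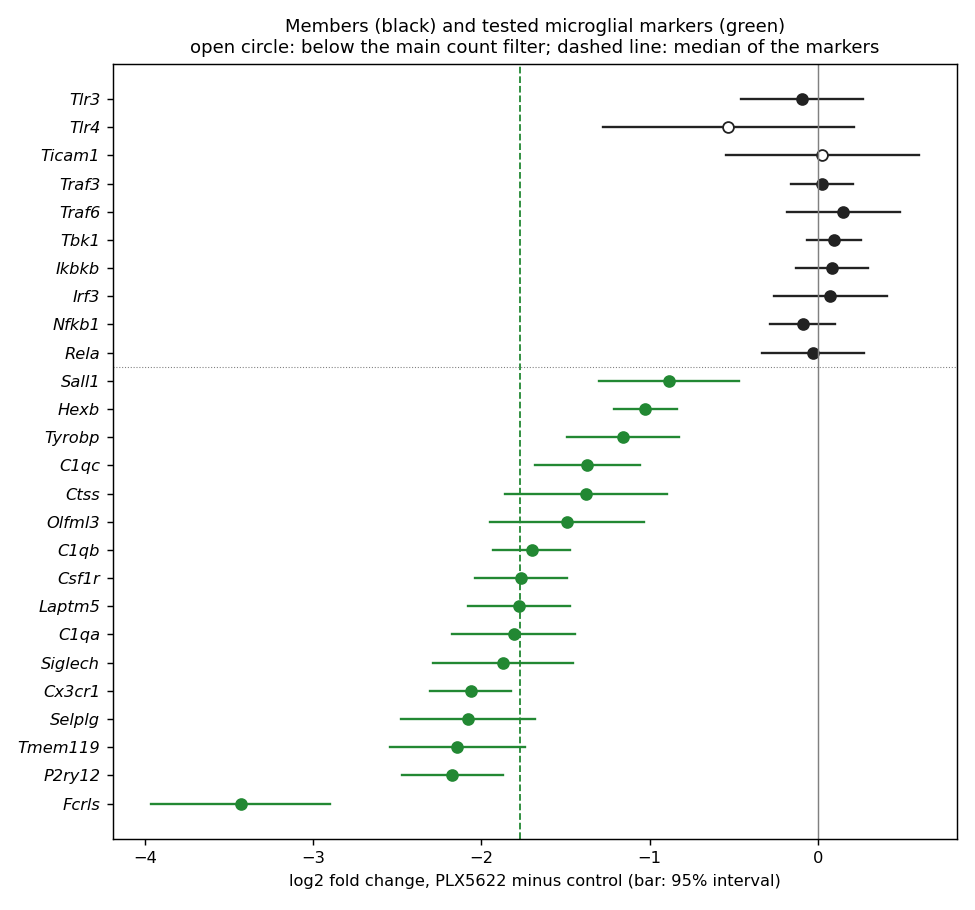
Log2 fold change (PLX5622 minus control) with its 95% interval for the 10 genes (black, open where below the main count filter) and for the tested microglial markers (green). The intervals of the 10 genes include 0, while the 16 tested markers lie below it, with a median of -1.77.

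The 10 genes were ordered by CPM per kilobase of exon. The libraries are biased to the 3′ end, where counts need not grow with exon length. This order therefore rests in part on the exon lengths and is not an order of transcript level. In control, Ikbkb (19078 exon bases) stood below Tlr3 (5207 exon bases) on this scale, at 1.58 against 1.91. By CPM alone, the lowest control library of Ikbkb (24.7) lay above the highest of Tlr3 (13.5). Tbk1 was the highest at 15.3 CPM per exon kilobase in control and 16.2 in PLX5622. On this scale its libraries lay apart from those of the next gene, Traf3, in both diets. By CPM alone the 2 genes overlapped, with Tbk1 from 49.3 and Traf3 up to 60.3 CPM in control. Traf3 (6.71 and 6.79) and Rela (5.05 and 4.92) followed. Tlr4 was the lowest in both diets, at 0.563 and 0.370 CPM per exon kilobase, next to Ticam1 at 1.45 and 1.49. In control all neighbours in the order below Tbk1 overlapped in their ranges. In PLX5622 Nfkb1 at 3.61 also lay apart from Traf6 at 1.95.

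The likeness of the tested genes to each other was measured within the diets. Over the 28 pairs of the 8 tested genes, Pearson's r of log2 CPM after subtracting the diet means had a median of -0.009, from -0.68 for Tlr3 with Traf6 to 0.63 for Ikbkb with Nfkb1. For the 6 genes whose mean reached 20 counts, the most similar of all other tested genes was found by the same measure. It was Brat1 for Traf3 (r = 0.79), Plk2 for Traf6 (0.86), Uimc1 for Tbk1 (0.77), Bcl11a for Ikbkb (0.80), Galnt17 for Nfkb1 (0.86) and Grasp for Rela (0.73). Spearman's rho of these pairs was 0.59, 0.84, 0.73, 0.81, 0.66 and 0.60 in the same order. The second highest r was 0.77, 0.77, 0.77, 0.78, 0.85 and 0.73. The r values of the most similar genes are the highest of about 11051 values each, over libraries that share their depth and composition. They are given as a description only.

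A list of 97 other genes of the pathway was read in the same way. Of these, 37 could be tested by edgeR, 1 fell and 0 rose, with a median log2 fold change of -0.005 (19 below 0 and 18 above), where 0.353% of all genes tested fell. A further 43 were tested by the exact test, in which 1 fell and 0 rose, where 0.396% of all low-count genes fell, and 17 had under 10 counts in all, of which 7 were at 0 in every library. The interval lay within a 1.5-fold change for 30 of the 37, against 93.2% of all genes tested. Both genes that fell, Ly86 and Cd180, encode partners in 1 receptor complex: MD-1 and RP105, a TLR4-like protein.

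Ly86 ran from 13.6 to 32.6 CPM with a median of 20.7 in control and from 5.37 to 13.6 CPM with a median of 9.14 in PLX5622. All 9 PLX5622 libraries lay below the control mean, and the ranges met at 13.6 CPM. The log2 fold change was -1.26 ± 0.17 (95% interval -1.60 to -0.92; edgeR adjusted p = 1.52e-07). Cd180 had 60 counts in control and 19 in PLX5622, with means of 4.86 ± 1.98 and 1.56 ± 0.99 CPM. It passed the exact permutation test (p = 0.00016, adjusted p = 0.045), but not when any of 14 of the 18 libraries was left out, with adjusted p from 0.020 to 0.125 over all 18. Both genes were lower in the diet in which the microglial marker sum given above was lower. Their relation to that sum across libraries was not tested.

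Of the 10 other Toll-like receptors, none had enough counts for edgeR, and 6 had under 10 counts in all, of which Tlr8, Tlr9 and Tlr11 were at 0 in all libraries. Tlr7, a receptor of single-stranded RNA, had 44 counts in control and 22 in PLX5622 (exact permutation test, adjusted p = 0.401). Tlr13, a receptor of bacterial ribosomal RNA, had 17 and 4 (adjusted p = 0.263 by the same test). Among co-receptors and trafficking proteins, Unc93b1 encodes the chaperone of the endosomal receptors TLR3 and TLR7. It was at 9.82 ± 3.11 CPM in control and 5.88 ± 1.81 CPM in PLX5622, with 9 of 9 PLX5622 libraries below the control mean. The groups overlapped, and it did not pass (edgeR adjusted p = 0.141). Ly96, the MD-2 partner of TLR4, had 49 and 41 counts. Cd14, which hands lipopolysaccharide to TLR4, had 10 and 4. Unc93b1, the Toll-like receptors named in this paragraph, Ly96 and Cd14 are outside the rule for named genes and were chosen after their values were seen.

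The adaptor Myd88 was at 0 in every library. Its whole span is overlapped by Slc22a14 on the same strand, and of 456 coding genes nested in a same-strand gene only 1.54% had any count, so this 0 does not show that Myd88 was silent. Of the 2 adaptors past edgeR's count filter, Sarm1 had the smaller p (log2 fold change -0.16 ± 0.14, edgeR adjusted p = 0.903). Pik3ap1, below that filter, is described with the lower filter. In the step of IRAK, RIP and TRAF proteins, edgeR tested 9 of 17 with a median of -0.09, Traf2 having the smallest edgeR p (-0.43 ± 0.22, adjusted p = 0.752). The exact test took 6 more, and neither test called any. In the TAK1 and IκB kinase complexes edgeR tested 9 of 12 with a median of 0.02, Tbkbp1, a TBK1-binding protein, having the smallest edgeR p (-0.29 ± 0.15, adjusted p = 0.756). The exact test took the other 3, and neither test called any. Among Rel proteins and interferon regulatory factors Rel, or c-Rel, lay below the control mean in 9 of 9 PLX5622 libraries. Its groups overlapped, and it did not pass (-0.32 ± 0.17, edgeR adjusted p = 0.782). Irf5, an interferon regulatory factor below the filter, had 52 counts in control and 26 in PLX5622, with means of 4.19 ± 1.59 and 2.06 ± 1.35 CPM and 8 of 9 PLX5622 libraries below the control mean. It did not pass the exact permutation test (p = 0.0076, adjusted p = 0.365). Myd88 and Irf5 are outside the rule for named genes and were chosen after their values were seen.

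Inhibitors and targets of the pathway were read in the same way, and whether their levels follow its activity was not tested. Of 13 inhibitors edgeR tested 7, with a median log2 fold change of 0.02, and the exact test the other 6, and neither called any. Nfkbia, the IκBα whose promoter match is shown above, was at 35.0 ± 5.9 CPM in control and 35.1 ± 6.3 CPM in PLX5622 (edgeR adjusted p = 0.998). Tnip1, a partner of the inhibitor A20, had the smallest edgeR p (0.29 ± 0.14, adjusted p = 0.720). Of 17 targets edgeR tested 3 and the exact test 7, and none passed. Ptgs2, the inducible cyclooxygenase, was above the control mean in 9 of 9 PLX5622 libraries (12.2 ± 3.84 and 16.4 ± 3.34 CPM, log2 fold change 0.43 ± 0.17, edgeR adjusted p = 0.517). The groups overlapped, with controls up to 18.2 CPM and PLX5622 libraries from 12.6 CPM. The share of all genes tested with 9 of 9 libraries on 1 side of the control mean was not computed. The classical targets were hardly read: Ifnb1 and Cxcl1 had 0 counts, Tnf and Il6 1 count each in all, so no change in them was detectable at this depth. Nfkbia and these 4 targets are outside the rule for named genes and were chosen after their values were seen.

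**Figure D3:**
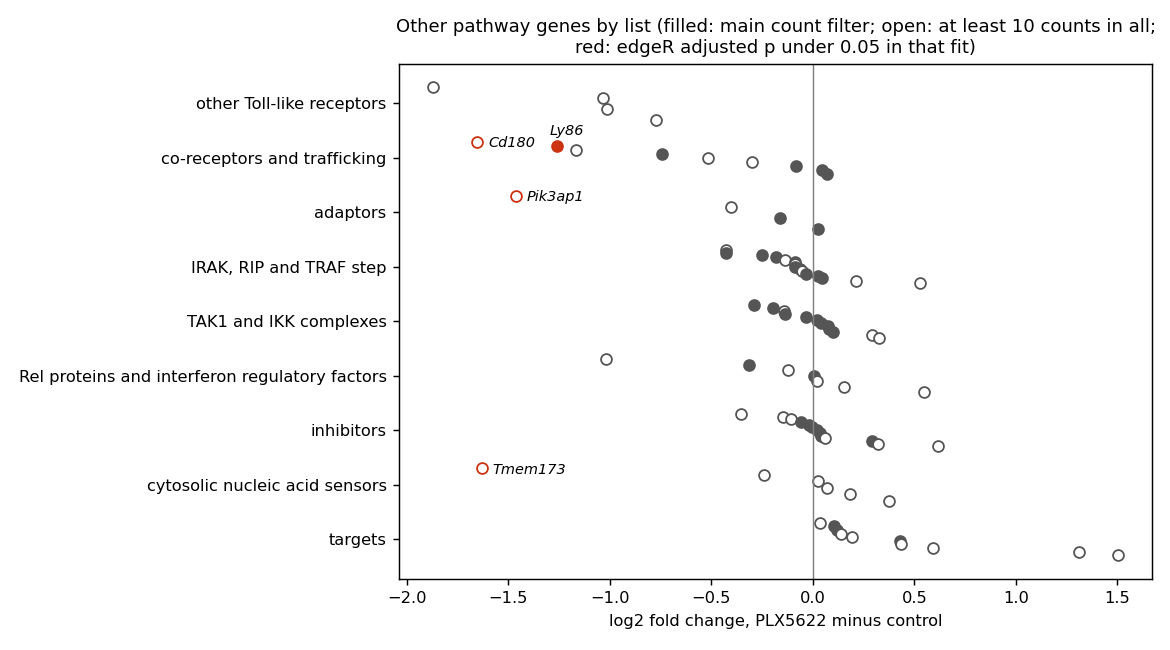
Log2 fold change (PLX5622 minus control) of the other pathway genes by list, filled for genes past the main count filter and open for those with at least 10 counts in all. Genes called lower by edgeR are in red, and most points lie around 0.

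With the lower filter of 10 counts in all, edgeR called 4 of the 80 pathway genes tested lower, against 0.547% of all genes at this filter. Beside Ly86 and Cd180 (-1.65 ± 0.36, adjusted p = 0.00206), these were Tmem173, which encodes STING, an adaptor of cytosolic DNA sensing (-1.63 ± 0.39, adjusted p = 0.011), and Pik3ap1, an adaptor that links Toll-like receptors to PI3-kinase (-1.46 ± 0.39, adjusted p = 0.042). Tmem173 and Pik3ap1 lie outside the rule for named genes and were chosen after their values were seen. They did not pass the exact permutation test (adjusted p = 0.061 and 0.057) or DESeq2 (0.068 and 0.174).

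**Figure D4:**
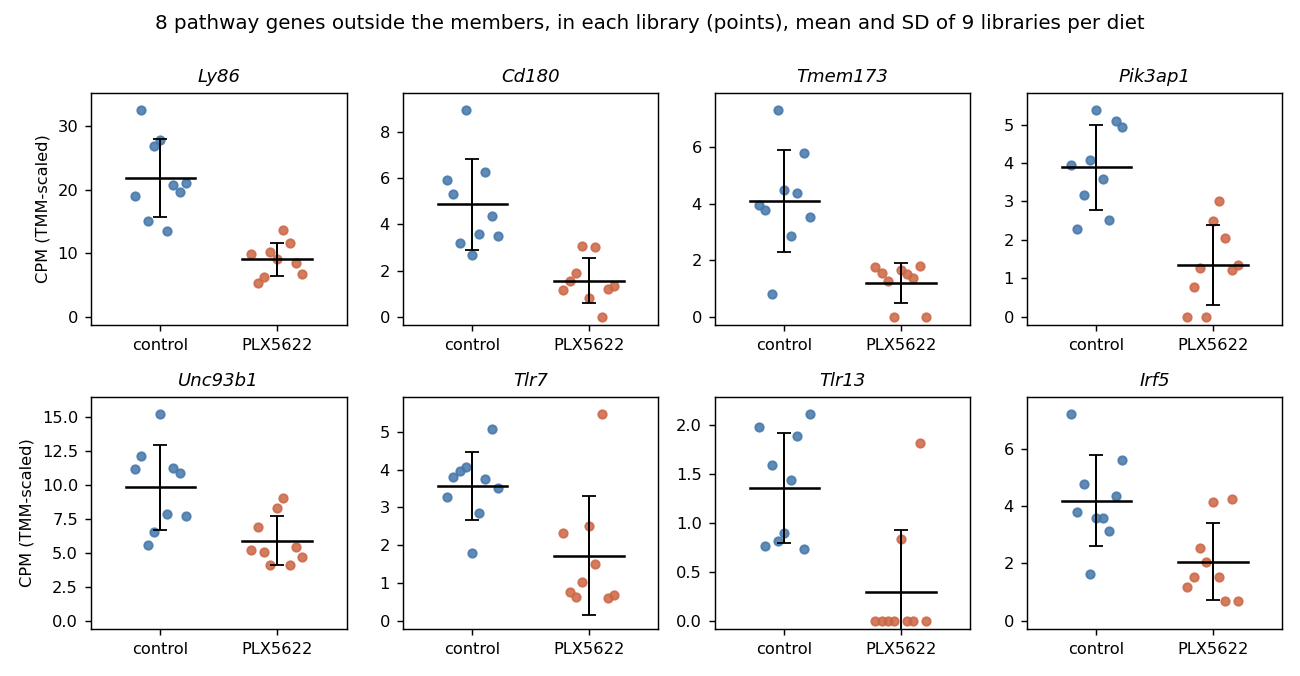
Level (CPM, TMM-scaled, linear axis from 0) of 8 pathway genes outside the 10 in each control and PLX5622 library, shown as points with the mean and SD of 9 libraries per diet. Ly86 falls from a mean of 21.8 to 9.03 CPM, and the groups overlap for all 8 genes.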

How the data were processed

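RNA of medial prefrontal cortex was measured in 18 libraries, 9 per diet. The authors deposited 1 table of raw read counts by gene for each library. Builds mm10 and GRCm38.p6 are listed in the submitters' processing notes, as are the tools HTSeq 0.11.0 and Bowtie2 2.3.4.3. The strand setting, the feature and the annotation were not given in the sources used here. Of the 54547 identifiers 53620 were matched to names in GENCODE M21.

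Counts were tested as deposited with edgeR 4.0.16 in R 4.3.3 (filterByExpr, minimum count 10 and minimum total 15, TMM scaling, robust quasi-likelihood fit, Benjamini-Hochberg adjustment over 11051 genes, adjusted p under 0.05). Genes below that filter with at least 10 counts in all were compared by an exact permutation test of CPM over 48620 assignments, adjusted over 6315 genes. Sums of 13 marker lists were compared by the same test. The scripts were tested on simulated data. Replicates are separate libraries numbered in their titles, and these numbers were read as animal numbers. Nothing is said of cages or litters, so p-values measure the spread between these libraries.

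The rule for named genes takes all 10 genes, in each pathway list the called genes (low-count genes by the exact test) and the gene with the smallest edgeR p, 3 markers of depletion and the most similar gene of each well-counted member. Other genes were named after their values were seen: Trem2, the genes so described in the text, and Nfkbia and Tnfaip3 for their promoters. The members and lists were chosen with earlier results of these data known. Alternatives were DESeq2 1.42.0, limma-voom 3.58.1, other scalings and count filters, the animal number's position as a covariate, another threshold and leaving out each library. A second κB-like motif was searched after the matches of the first were seen.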

Additional observations from a re-analysis of the deposited data

Results flagged for a closer look

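In 44 groups of 9 libraries examined, 2 held a library far from the other 8. For normally distributed values about 1 in 20 groups would be flagged. Both flags concern genes with few counts, for which that rate need not hold. Tlr7 was at 5.48 CPM (8 counts) in PLX5622 32, where the next library of that diet was at 2.49 CPM. Tlr13 was at 1.81 CPM (3 counts) in PLX5622 34, where the next was at 0.831 CPM.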

How the results depend on the processing

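None of the 10 genes was called in 213 alternative values of the fits, where the lowest adjusted p was 0.790, or in the exact permutation tests of Tlr4 and Ticam1 with each library left out, where it was 0.721 (Tlr4). Signs turned for Traf3 (log2 fold change -0.025 to 0.068 over left-out libraries), Rela (-0.13 to 0.060), Ticam1 (-0.33 to 0.70 CPM) and, without control 8 and PLX5622 28, Nfkb1 (0.0072). The 1 pathway gene called lower became 2 with DESeq2, 4 with at least 10 counts in all and 0 with a mean of at least 50 counts. It stayed at 1 when any library was left out. Low-count genes called lower ran from 0 to 2 over left-out libraries. The 39 genes called lower in all became 65, 95 and 8 under those 3 settings and ran from 38 to 50 over left-out libraries. The 5 called higher became 14 with limma-voom, 11 with at least 10 counts, 0 with a mean of at least 50, 17 with animal position, 8 without control 8 and PLX5622 28, 10 at an adjusted p under 0.10, and 2 to 13 over left-out libraries. The cause of these moves was not tested, except that stricter filters test fewer genes. The astrocyte sum was 100.1% of control by library size only. Without control 3 the sums were 199% for blood myeloid cells (63.5% with it), 86.7% for lymphocytes (adjusted p = 0.054 by the exact permutation test, 85.5% and 0.028 with it), 99.9% for oligodendrocyte precursors and 100.1% for mural cells. No paired analysis was possible because no replicate number occurs in both diets. At this depth Tlr4, Ticam1 and 60 of the 97 other pathway genes lay below edgeR's count filter, 3 of the 97 being mostly overlapped by another gene.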
